A study of Mus musculus with 8 samples.

Results

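The data of 7 genes were drawn from the RNA sequencing of long-term hematopoietic stem cells (LT-HSCs) of the fetal liver. They are the retinoic acid receptors *Rara*, *Rarb* and *Rarg* (RARα, RARβ, RARγ), the retinoid X receptors *Rxra*, *Rxrb* and *Rxrg* (RXRα, RXRβ, RXRγ) and the corepressor *Ncor1*. The genes were chosen by name, and each was found by its Ensembl identifier among the 55487 genes counted. Of the 7, 6 were among the 20610 genes tested, which had 10 or more reads summed over the 8 samples, and *Rxrg* was not.

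Retinoic acid receptors are nuclear receptors that bind all-trans retinoic acid, the active derivative of vitamin A. They bind DNA as heterodimers with a retinoid X receptor, typically on direct repeats of a short half-site. Without ligand the heterodimer holds corepressor complexes such as that built on NCoR1, and ligand exchanges these for coactivators. Retinoid X receptors also pair with the vitamin D, thyroid hormone, PPAR and LXR receptors, and retinoic acid signaling is known to restrain the cycling of adult blood stem cells.

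The study compared embryos of *IκBα* HET matings at E14.5, with 3 WT, 3 HET and 2 KO samples of 500 LT-HSCs each. *IκBα* (*Nfkbia*) encodes an inhibitor of NF-κB, and the line is the targeted knockout *Nfkbia* tm1Bal, a germline deletion and so not restricted to blood cells. By the methods the parents could also carry a Gfi1:tomato reporter, and which of these embryos did is not given in the sources used here. The cells were sorted from the liver as lineage-negative, SCA1 and cKIT positive, CD48 negative and CD150 positive. The male samples were WT1, WT2 and HET1, recorded as total RNA. The other 5 were female, both KO samples among them, and are recorded as polyA RNA. Sex and the RNA record therefore coincide in every sample and cannot be told apart, and no KO sample was male. The methods state that a further KO sample was discarded for its sequencing quality. The replicates were samples of separate mice by the methods.

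The count table assigned 17895973 to 21720972 reads of a sample to genes (median 19830140). Levels are given as CPM, the reads of a gene relative to all reads of its sample after scaling by TMM factors, and levels of different genes are compared per kilobase of annotated exon. A level of 3 reads, taken as the floor, was 0.125 to 0.178 CPM. The reads carry no molecular identifiers, so floors and intervals cover counting error only. The targeted gene *Nfkbia* was down to 1 read in KO1 and to 0 in KO2, and it had 243 to 1621 reads in the 6 WT and HET samples.

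The stem cell label was checked on 10 HSC markers, among them *Procr* and *Mecom*. Their summed level was highest in WT2, WT1 and KO1 at 2191, 2058 and 2016 CPM. KO2 had 1318 CPM, HET1 802 CPM and HET2 660 CPM. The lowest sums were those of WT3 and HET3, at 311 and 209.6 CPM. The sums of 10 hepatocyte markers ran from 55.7 to 1519 CPM in WT and HET and were 59.7 and 309 CPM in KO, and those of 9 erythroid markers ran from 1314 to 14693 CPM and were 759 and 3350 CPM. The libraries labelled WT3 and HET3 went against their label in 2 ways, which *Kit* and *Hnf4a* of the same lists did not show. The HSC marker *Kit* was at 148 and 170 CPM there, and at 135 and 165 CPM in HET1 and HET2. The hepatocyte marker *Hnf4a* was at 2.40 and 1.54 CPM there, and at 2.76 to 9.69 CPM in the other 6. *Procr*, the gene of the stem cell receptor EPCR, was at 8.49 and 1.13 CPM there and at 30.6 to 169 CPM in the other 6. *Alb*, the albumin gene of hepatocytes, was at 379.7 and 136 CPM there and at no more than 44.1 CPM in the others. The order of levels, the shares, the edgeR comparisons of the members, the marker relations and the medians of the gene lists are therefore also given without these 2 libraries. In these bulk samples, fewer cells of a type and less RNA per cell cannot be told apart.

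The start regions of the receptor genes show how the paralogs differ in their own regulatory sequence. All 7 genes had a RefSeq promoter window of 300 bases (250 before and 50 after a start, GRCm38.p6), with 15 windows in all. They were searched on both strands for the NF-κB consensus and for the GC box, written GGGCGG. They were also searched for direct repeats, spaced by 1, 2 or 5 bases, of a half-site. The half-site was AGGTCA in its common form, with AGTTCA as the first variant allowed, then the form written GGGTCA and last the form written GGTTCA. Capitals mark these matches in 1 window per gene. Shown are *Rarb*, which holds the repeat, *Rara* and *Rarg*, whose levels moved together over the samples, and *Rxrb*, the main RXR gene. *Rara*, *Rarg* and *Rxrb* also have windows that are not shown.
Rarb: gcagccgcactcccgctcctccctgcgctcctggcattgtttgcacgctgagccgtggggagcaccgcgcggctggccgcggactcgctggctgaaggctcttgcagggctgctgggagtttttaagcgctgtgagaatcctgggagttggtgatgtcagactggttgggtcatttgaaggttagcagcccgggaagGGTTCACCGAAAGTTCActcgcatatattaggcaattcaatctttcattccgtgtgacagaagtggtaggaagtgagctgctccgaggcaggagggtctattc
Rara: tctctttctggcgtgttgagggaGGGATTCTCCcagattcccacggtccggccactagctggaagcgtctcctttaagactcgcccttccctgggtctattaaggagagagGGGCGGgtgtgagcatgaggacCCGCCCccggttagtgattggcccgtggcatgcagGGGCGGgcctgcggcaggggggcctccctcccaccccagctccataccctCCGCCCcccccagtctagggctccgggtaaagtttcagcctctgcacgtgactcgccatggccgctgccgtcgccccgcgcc
Rarg: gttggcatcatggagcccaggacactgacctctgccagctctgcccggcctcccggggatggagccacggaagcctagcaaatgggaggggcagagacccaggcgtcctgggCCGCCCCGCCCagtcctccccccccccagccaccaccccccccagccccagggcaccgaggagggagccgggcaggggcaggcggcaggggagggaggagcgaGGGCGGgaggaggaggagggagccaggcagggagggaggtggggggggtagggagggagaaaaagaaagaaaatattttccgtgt
Rxrb: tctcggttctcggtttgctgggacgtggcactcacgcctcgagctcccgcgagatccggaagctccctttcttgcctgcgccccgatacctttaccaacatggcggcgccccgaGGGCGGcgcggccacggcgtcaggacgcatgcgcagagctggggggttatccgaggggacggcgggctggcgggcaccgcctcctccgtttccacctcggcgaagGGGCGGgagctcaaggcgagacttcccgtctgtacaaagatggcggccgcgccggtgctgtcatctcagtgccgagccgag
The *Rarb* window (chr14:16575427-16575726, minus strand) holds the direct repeat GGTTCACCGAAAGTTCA with 5 bases between the half-sites, starting 53 bases before the transcription start. A repeat with this spacing was in 32 of 32851 RefSeq windows (0.0974%), and no other member window had a repeat with 1, 2 or 5 bases between. It is the classical retinoic acid response element of this gene, by which RARβ is known to be induced by its own ligand. The *Rara* window (chr11:98937446-98937745, plus strand) holds a match to the NF-κB consensus, GGGATTCTCC, 227 bases before the start, and 4 GC boxes. The consensus was in 4.51% of all windows, and among the members only in this and the overlapping *Rara* window that starts 22 bases on. The *Rarg* window shown (chr15:102257473-102257772, minus strand) holds 3 GC boxes, and the *Rxrb* window shown (chr17:34031562-34031861, plus strand) holds 2, where 35.7% of all windows hold at least 1. The other *Rarg* window held none, the other *Rxrb* window held more, and the *Rara* windows farther on held fewer. The GC box count of a gene thus depends on the window. A match is a description of the letters and not evidence of binding.

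Among the retinoic acid receptors, *Rara* was the main gene in every sample. *Rara* (ENSMUSG00000037992, chromosome 11, 98927818 to 98974942, plus strand, GRCm38) was at 28.5, 23.0 and 3.23 CPM in WT1, WT2 and WT3. It was at 13.1, 6.76 and 4.86 CPM in HET1, HET2 and HET3, and at 19.2 and 13.8 CPM in KO1 and KO2. Both KO samples thus lay below WT1 and WT2 and above the other 4 samples, and WT3 was the lowest of all. Per kilobase of exon the mean was 4.18 ± 3.05 CPM per kb in WT (SD, n = 3), 1.89 ± 0.986 in HET (SD, n = 3) and 3.79 ± 0.877 in KO (SD, n = 2). Between the lowest and the highest sample *Rara* differed 8.83-fold.

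*Rarg*, which lies on chromosome 15 (102234938 to 102257517, minus strand, ENSMUSG00000001288), is the paralog tied to self-renewal of adult blood stem cells. It was at 5.43, 5.60 and 1.15 CPM in WT1, WT2 and WT3, at 2.13, 0.555 and 0.356 CPM in HET1, HET2 and HET3, and at 5.73 and 1.72 CPM in KO1 and KO2. KO1 was just above WT1 and WT2, whereas KO2 lay below HET1. These levels rest on 6 to 134 reads. *Rarg* differed 16.1-fold between the lowest and the highest sample.

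*Rarb* (ENSMUSG00000017491, chromosome 14, 16430839 to 16819156, minus strand) was at the edge of detection. It had 31, 36 and 1 reads in WT1, WT2 and WT3, 0, 15 and 0 reads in HET1, HET2 and HET3, and 22 and 0 reads in KO1 and KO2. In 4 of the 8 samples it lay under the floor of 3 reads, and its highest level was 1.5 CPM in WT2. Of its exon bases 34.1% are shared with *Top2b* on the other strand, and the strand setting of the counting is not given in the sources used here. *Top2b* had 3719 to 4453 reads in HET1, HET3 and KO2, where *Rarb* had 0 reads. In the other samples the *Rarb* count remains uncertain for this overlap.

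Of the retinoid X receptors, *Rxrb* carried nearly all of the reads. *Rxrb* (ENSMUSG00000039656, chromosome 17, 34031812 to 34038399, plus strand) was at 55.7, 58.7 and 43.6 CPM in WT1, WT2 and WT3, at 44.4, 47.7 and 46.7 CPM in HET1, HET2 and HET3, and at 65.5 and 57.1 CPM in KO1 and KO2. KO1 was the highest sample and KO2 lay between WT1 and WT2. The range was narrow, at 1.5-fold. *Rxra* (ENSMUSG00000015846, chromosome 2, 27676440 to 27762957, plus strand) was at 4.73, 3.76 and 5.68 CPM in the WT samples, at 7.98, 7.42 and 5.75 CPM in the HET samples, and at 5.43 and 4.97 CPM in KO. The lowest HET sample, HET3 (97 reads), and the highest of the others, WT3 (109 reads), were nearly level. The lowest samples were WT1 and WT2, those with the most *Rara*. *Rxrg* (ENSMUSG00000015843, chromosome 1, 167598384 to 167639623, plus strand), known mainly from muscle and brain, had 1 read in HET3 and 0 reads in the 7 others, which was not detectable at this depth.

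*Ncor1* (ENSMUSG00000018501, chromosome 11, 62316426 to 62458541, minus strand) was the highest of the 7 genes. It was at 336, 335 and 320.2 CPM in WT1, WT2 and WT3, at 329, 299.8 and 325 CPM in HET1, HET2 and HET3, and at 315 and 319 CPM in KO1 and KO2. The groups overlapped and the spread over all 8 samples was a coefficient of variation (CV) of 3.66%. Among the 10099 genes with a mean of at least 5 CPM only 0.0396% varied less, and their median CV was 25.9%. This evenness depends on the scaling, since with library size only its CV was 13.4%, at percentile 20 of the same genes. The CV of *Rxrb* was then 25.9% in place of 15.1%. *Rara* and *Rarg* varied widely under both scalings, with CVs of 64.3% and 83.0%, and 71.0% and 89.5% with library size only.

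**Figure D1:**
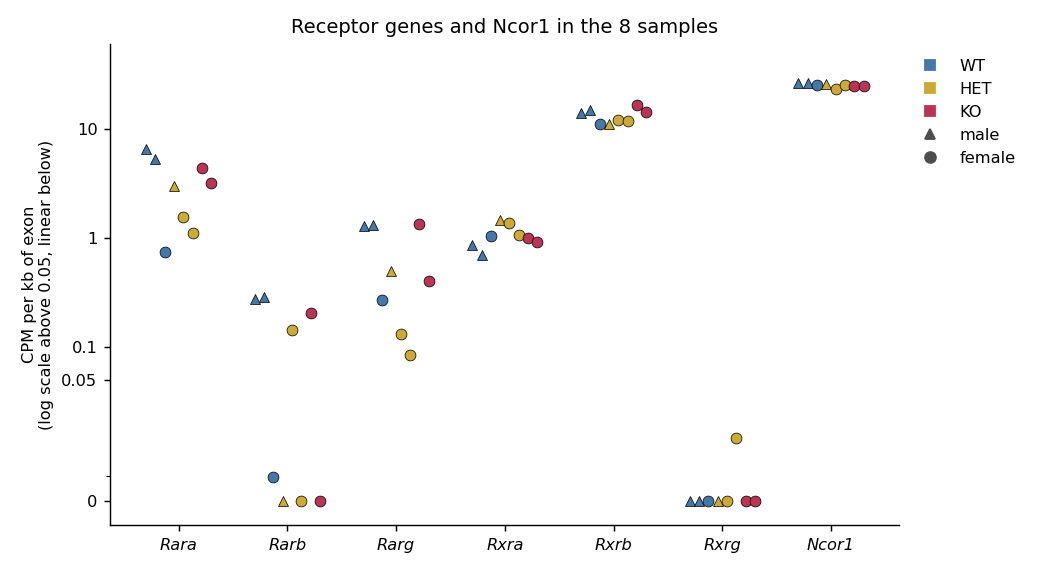
Levels of the 7 genes in CPM per kb of exon, on an axis that is logarithmic above 0.05 and linear below, with 1 point per sample, color for genotype and shape for sex. *Ncor1* and *Rxrb* form tight groups at the top, *Rara* and *Rarg* spread over 8.83-fold and 16.1-fold, and *Rarb* and *Rxrg* reach 0.

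The order of levels was the same at the top in every sample. Per kilobase of exon, *Ncor1* was 1.92-fold above *Rxrb* (8 of 8 samples) and *Rxrb* was 5.11-fold above *Rara* (8 of 8 samples). Both steps gave an adjusted p of 0.0156 (exact two-sided sign-flip permutation test of the paired log2 difference, adjusted over 4 neighboring pairs). *Rara* stood 2.51-fold above *Rxra* in 7 of 8 samples, with the reverse in WT3, which missed the threshold (exact permutation test, adjusted p = 0.0521). With no length correction, *Rxra* was above *Rara* in HET2 and HET3 too. *Rxra* and *Rarg* did not differ beyond their spread (exact permutation test, adjusted p = 0.0938), as *Rxra* was higher in 5 samples and *Rarg* in WT1, WT2 and KO1. Without WT3 and HET3, the steps from *Ncor1* to *Rxrb*, *Rxrb* to *Rara* and *Rara* to *Rxra* each held in 6 of 6 samples (exact permutation test, adjusted p = 0.0417), with folds of 1.84, 3.79 and 3.57. The step from *Rara* to *Rxra* passed only with WT3, the reversed sample, left out after the data were seen. *Rara* also followed the HSC markers by which the 2 libraries were set apart, so this pass is no independent result. *Rarb* and *Rxrg*, with samples at 0, were left out of the tested order and lay at the bottom.

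As a share of the summed RAR genes in CPM per kb, *Rara* made up 82.1% ± 7.27 (SD, n = 8), *Rarg* 15.4% ± 7.0 and *Rarb* 2.48% ± 2.79. The *Rara* share ranged from 72.6% in WT3 to 93.0% in HET3. The *Rarg* share was 15.8%, 19.1% and 26.4% in WT1, WT2 and WT3, and 14.3%, 7.15% and 6.97% in HET1, HET2 and HET3. In KO1 and KO2 it was 22.6% and 11.3%. The WT samples thus lay above all 3 HET samples, and the 2 KO samples lay on either side of WT1. Of the RAR reads in WT3, 22 of 85 were from *Rarg* (25.9%, exact 95% binomial interval 17 to 36.5%), and in HET3 6 of 88 (6.82%, 2.54 to 14.3%). For WT1 and HET1, the lowest WT and the highest HET share, these intervals overlapped. They were 12.8 to 18.1% in WT1 (116 of 756 reads) and 10.2 to 18.6% in HET1 (40 of 286 reads). The order of the WT and HET shares was not tested.

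Of the summed RXR genes, *Rxrb* made up 92.4% ± 2.49 (SD, n = 8) and *Rxra* 7.56% ± 2.48. The *Rxrb* share was 94.2%, 95.6% and 91.4% in the WT samples, 88.4%, 89.8% and 91.6% in the HET samples and 94.3% and 94.0% in KO. KO lay above every HET sample and inside the range of WT. The RXR sum exceeded the RAR sum in each sample, and their ratio was 0.542, 0.444 and 0.0847 (RAR over RXR) in WT1, WT2 and WT3. It was 0.277, 0.136 and 0.0933 in HET1, HET2 and HET3, and 0.340 and 0.234 in KO1 and KO2. Since the RXR sum moved little, from 12.0 to 17.5 CPM per kb, most of the range of this ratio was that of the RAR sum, from 1.02 to 8.08 CPM per kb. For KO against the 6 others, none of the 5 shares passed a test (exact two-sided permutation tests, p from 0.357 to 1, where 2 samples against 6 allow no p under 0.0714), nor did the ratio (permutation p = 0.929). Without WT3 and HET3 the *Rara* share was 82.1% ± 4.16 in the other 4 WT and HET samples (SD, n = 4) and 81.3% ± 10.4 in KO (SD, n = 2), and the *Rxrb* share 92.0% ± 3.40 and 94.2% ± 0.187.

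**Figure D2:**
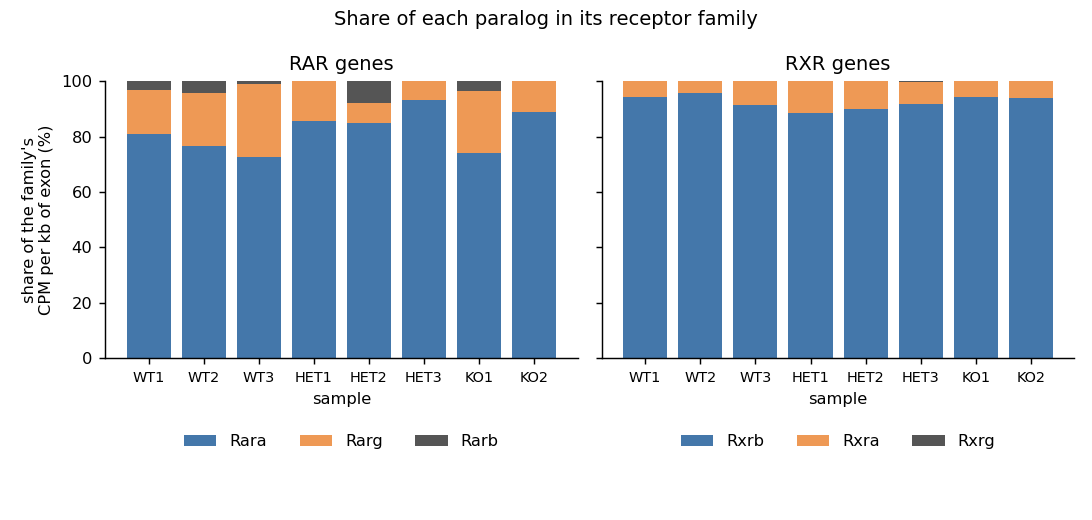
Stacked bars of the share of each paralog in the summed RAR genes (left) and RXR genes (right), in percent of CPM per kb of exon, for each of the 8 samples. *Rara* fills 72.6% to 93.0% of the RAR bars and *Rxrb* 88.4% to 95.6% of the RXR bars.

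KO was compared with the pooled WT and HET samples, the reference of the study, with sex and genotype in the model. Of the 6 members tested, 0 passed, under the quasi-likelihood test of edgeR, an adjusted p of 0.05 with a log2 fold change over 1, as did 0 of all 20610 genes (0%). The log2 fold change of *Rara* was 1.74 (standard error 0.417, adjusted p = 0.148), that of *Rarg* 2.43 (standard error 0.755, adjusted p = 0.152) and that of *Rxrb* 0.41 (standard error 0.176, adjusted p = 0.191, all edgeR). These 3 had an unadjusted p under 0.05, as had 25.2% of all genes. The values of *Ncor1*, *Rxra* and *Rarb* were 0.01 (standard error 0.131), -0.27 (standard error 0.427) and 0.96 (standard error 2.01). The median over the 6 members was 0.69, beside 0.13 over all genes. DESeq2 with apeglm called *Rara* and *Rarg*, at 1.46 (adjusted p = 0.00877) and 1.80 (adjusted p = 0.0279) on the log2 scale after shrinkage, 2 of 6 members beside 7.10% of all genes called and 6.50% called higher.

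With sex in the model and both KO samples female, this estimate rests on the 3 female WT and HET samples. Those 5 samples alone gave 1.69 for *Rara*, 2.37 for *Rarg*, 0.37 for *Rxrb* and -0.04 for *Ncor1* (log2 fold change, edgeR). Of the 3 female reference samples, 2 are WT3 and HET3, the libraries with the lowest HSC markers. All 10 HSC markers had a positive log2 fold change with an unadjusted p under 0.05 in the fit of all 8 samples (median 2.76), and 7 of them had one in the fit of the 5 female samples (median 2.71). Without WT3 and HET3 the only female reference left is HET2, so the estimate sets the 2 KO samples against that 1 library, and its adjusted p says little. The median of the HSC markers was then 1.54, *Rara* was at 1.26 and *Rarg* at 2.7 on the log2 scale (adjusted p = 0.682 for both, edgeR). Without KO1 the value of *Rarg* was 1.32 and without KO2 it was 3.05. The fit without WT3 and HET3 had 1 of 6 members at an unadjusted p under 0.05, *Rarg*, beside 5.09% of all genes. Without the sex term *Rara* and *Rarg* were at 0.32 and 0.55, and without both the term and the 2 libraries at -0.11 and 0.12. The part of the HSC marker level in these differences was not tested.

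The plain values show the same dependence on the reference. The KO pair exceeded every WT and HET sample for 0 of the 6 members, beside 3.05% of genes, and fell short of every one for 0, beside 1.79%. For *Rara*, *Rarg* and *Rxrb*, 3 of 6, the KO pair exceeded the 3 female WT and HET samples, beside 27.1% of genes (exact permutation test, p = 0.2, the smallest that 2 samples against 3 allow). Against all 6, the exact permutation test gave p = 0.571 for *Rara*, 0.500 for *Rarg* and 0.143 for *Rxrb*. In the authors' normalized log2 values, corrected for sex, *Rara* was at 9.80 and 9.51 in KO1 and KO2 and at 8.47 to 9.19 in the others. *Rxrb* was at 10.65 and 10.48 there, and at 10.09 to 10.43 in the others. These were 2 of 6 members whose KO pair exceeded all others, beside 19.3% of genes in that table. *Rarg*, *Rxra*, *Rarb* and *Ncor1* overlapped in it.

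**Figure D3:**
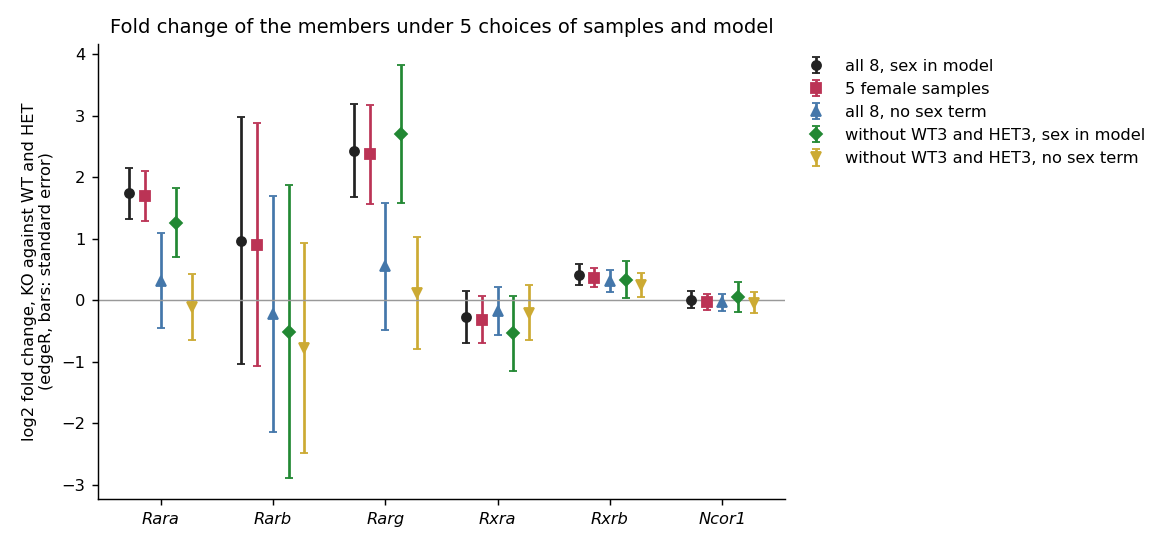
Log2 fold change of KO against WT and HET (edgeR, bars: standard error) for the 6 members tested, in 5 choices of samples and model. The points of *Rara* run from -0.11 to 1.74 and those of *Rarg* from 0.12 to 2.7, whereas *Rxrb* stays between 0.24 and 0.41 and *Ncor1* between -0.04 and 0.05.

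Between HET and WT, with sex in the model, no member passed the threshold. *Rarg* was at -1.34 (standard error 0.513, adjusted p = 0.931, edgeR) and was the 1 of 6 members at an unadjusted p under 0.05, beside 3.63% of all genes. *Rxra* was at 0.56 (standard error 0.386) and *Rara* at -0.08 (standard error 0.518). Without WT3 and HET3 only 4 samples and 1 residual degree of freedom remained, and the HET coefficient then sets HET1 against WT1 and WT2. As it rests on that 1 HET library, only log2 fold changes are given for it. *Rarb* was at -7.96, with 0 reads in HET1. *Rara* was then at a log2 fold change of -0.98, short of the fold asked for. The difference of the HET effect between the sexes passed the threshold for no member (lowest adjusted p = 0.452, for *Rara*, edgeR).

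Between the male and female WT and HET samples, *Rara* and *Rarg* had log2 fold changes of 2.07 (standard error 0.515) and 2.23 (standard error 0.521), each at an adjusted p of 0.176 (edgeR). They were 2 of 6 members at an unadjusted p under 0.05, beside 22.7% of all genes. For both genes, and also for *Ncor1*, the 3 male samples lay above the 3 female ones (exact permutation test, p = 0.1, the smallest that 3 against 3 allow). The share of all genes with this order was not counted, so it is not read as particular to these genes. The female samples include WT3 and HET3. Without them the estimate sets HET1 against HET2, 1 library each, and the values of *Rara* and *Rarg* were 0.95 and 1.93.

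Across the 8 samples, *Rara* and *Rarg* followed the HSC markers. Over 18 relations of a member with a marker sum, the log2 level of *Rara* had a Pearson r of 0.94 with that of the HSC markers (exact permutation p = 0.00067, adjusted p = 0.0087) and a Spearman rho of 0.95 (exact permutation p = 0.00114, adjusted p = 0.0205). For *Rarg* they were 0.89 (exact permutation p = 0.0037, adjusted p = 0.0222) and 0.88 (exact permutation p = 0.00724, adjusted p = 0.0434). Without the 2 samples farthest from the median, which are WT3 and HET3, r was 0.92 for both. The relation was wide, since 12.5% of all genes tested had an r of at least 0.90 with the HSC markers, and *Rara* stood at percentile 92.5 and *Rarg* at 86.9. *Rxrb* had an r of 0.83 (exact permutation p = 0.0146, adjusted p = 0.0526) and a rho of 0.76 (exact permutation p = 0.0368, adjusted p = 0.0828), with an r of 0.86 without the 2 samples. *Rxra* went the other way, with an r of -0.49 (exact permutation p = 0.219, adjusted p = 0.303), a rho of -0.76 (exact permutation p = 0.0368, adjusted p = 0.0828) and an r of -0.89 without the 2 samples, so neither coefficient passed the threshold with the HSC markers. With 10 hepatocyte markers, *Rara* had an r of -0.93 (exact permutation p = 0.000967, adjusted p = 0.0087), a rho of -0.90 (exact permutation p = 0.00456, adjusted p = 0.0410) and an r of -0.76 without WT3 and HET3. With the erythroid markers, *Rxrb* had an r of -0.84 (exact permutation p = 0.0089, adjusted p = 0.0401) and a rho of -0.81 (exact permutation p = 0.0218, adjusted p = 0.0654), with an r of -0.71 without KO1 and HET1, the farthest from the median. *Rxra* had an r of 0.78 (exact permutation p = 0.025, adjusted p = 0.0643) and a rho of 0.86 (exact permutation p = 0.0107, adjusted p = 0.0481) with them, and an r of 0.93 without KO1 and HET1. For each gene 1 of the 2 coefficients thus passed the threshold. Among all genes tested, the r with the erythroid markers stood at percentile 0.966 for *Rxrb* and 96.9 for *Rxra*. That of *Rara* with the hepatocyte markers stood at 1.92. Within the 5 female samples, too few for a reported test here, the r with the HSC markers was 0.93 for *Rara*, 0.83 for *Rarg*, 0.91 for *Rxrb* and -0.27 for *Rxra*. There the r with the erythroid markers was -0.81 for *Rxrb* and 0.49 for *Rxra*, and that of *Rara* with the hepatocyte markers was -0.89. The 3 male samples were not described alone.

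**Figure D4:**
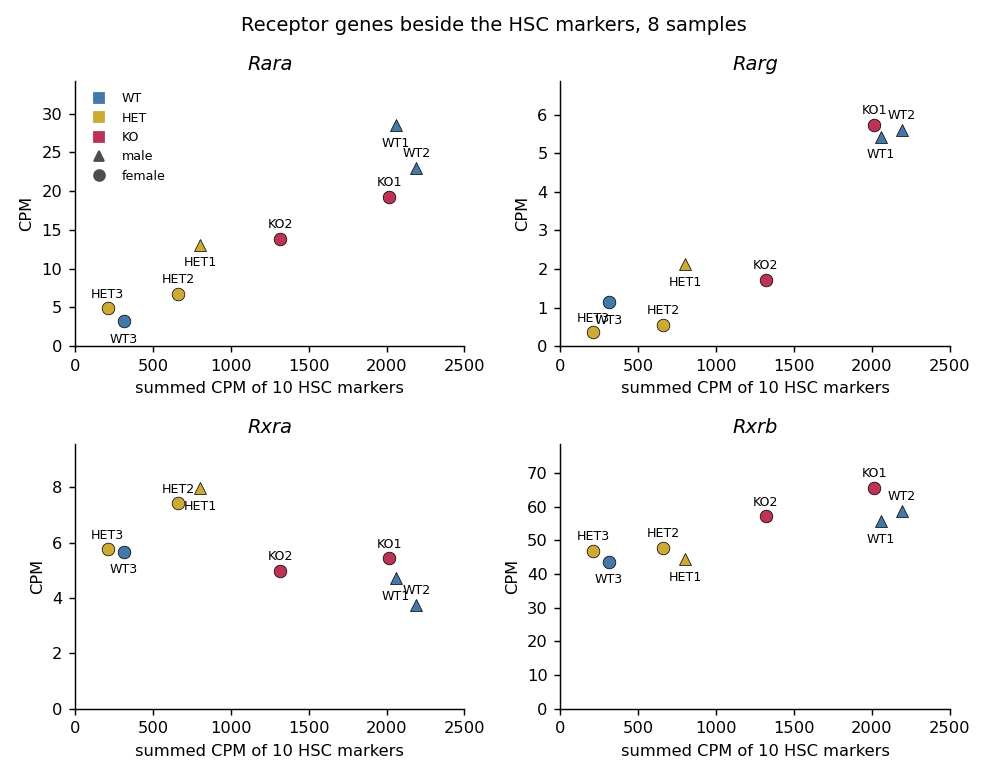
CPM of *Rara*, *Rarg*, *Rxra* and *Rxrb* (vertical axes, from 0) against the summed CPM of 10 HSC markers (horizontal axes), with 1 labelled point per sample. WT1, WT2 and KO1 lie at the right with the most *Rara* and *Rarg*, WT3 and HET3 at the left, and HET1, HET2 and KO2 between.

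As context for *Ncor1*, 12 corepressor genes including it were described. Of these, 0 were called in KO by edgeR and 0 by DESeq2 with apeglm, beside 0% and 7.10% of all genes. With edgeR 3 were higher and 2 lower at an unadjusted p under 0.05, beside 25.2% of all genes at such a p. Their median log2 fold change was -0.03, or 0.00088 without WT3 and HET3, beside 0.13 and 0.14 over all genes. The genes with the highest level per kilobase were the deacetylase gene *Hdac2* (99.1 ± 19.6 CPM per kb, SD, n = 8), *Sap30* (88.9 ± 32.4) and *Gps2* (75.5 ± 25.1). Of these, *Gps2* encodes a subunit of the NCoR complex and *Sap30* one of the SIN3 complex. The lowest p-values were those of the ligand-dependent corepressor *Lcor* (log2 fold change 0.97, standard error 0.224) and the scaffold *Sin3a* (0.67, standard error 0.159), both with an adjusted p of 0.148 (edgeR). Without WT3 and HET3 these were 0.76 and 0.69 (adjusted p = 0.682 for both, edgeR).

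**Figure D5:**
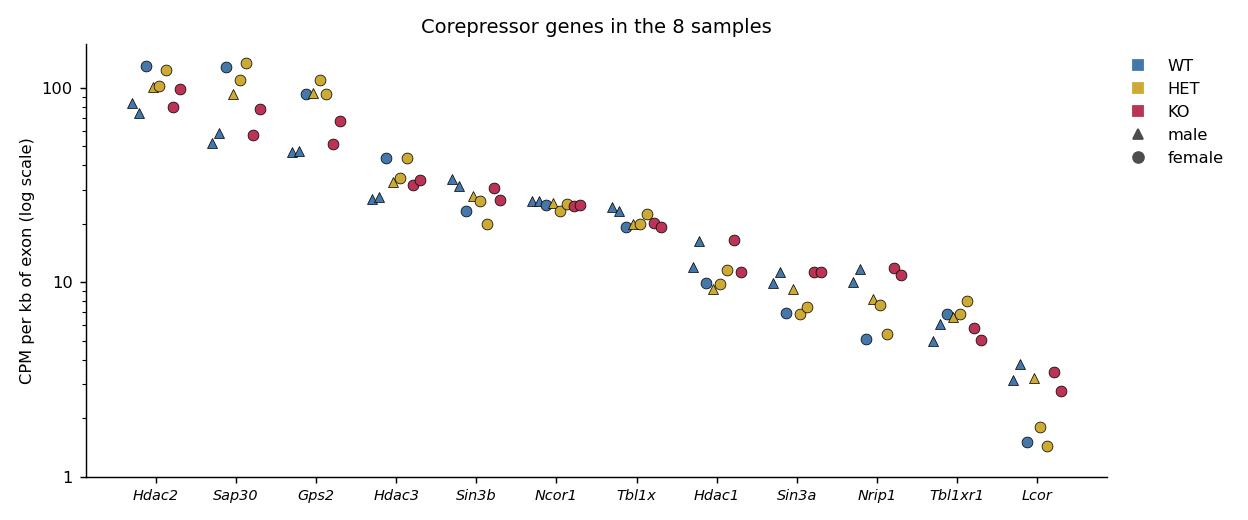
Levels of 12 corepressor genes in CPM per kb of exon (logarithmic axis), ordered by mean, with 1 point per sample. *Hdac2* has the highest mean, at 99.1, and *Ncor1* lies at 25.2 with its 8 points close together.

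Of 11 coactivator genes, 0 were called in KO by edgeR and 1 by DESeq2 with apeglm, *Ncoa3*. Of all genes, edgeR called 0% and DESeq2 with apeglm 7.10%. With edgeR 2 were higher at an unadjusted p under 0.05, beside 25.2% of all genes, and the median log2 fold change was 0.09, or 0.08 without WT3 and HET3, beside 0.13 and 0.14 over all genes. The acetyltransferase *Kat2a* (36.1 ± 3.71 CPM per kb, SD, n = 8) and the arginine methyltransferases *Prmt1* (16.2 ± 2.47) and *Carm1* (13.2 ± 4.33) were highest. The 2 with the lowest p-values were the p160 coactivators *Ncoa3* (log2 fold change 1.83, standard error 0.493, adjusted p = 0.148) and *Ncoa2* (0.72, standard error 0.251, adjusted p = 0.157, both edgeR). With DESeq2 and apeglm *Ncoa3* was at 1.48 (adjusted p = 0.0160), and with edgeR it was at 1.23 without WT3 and HET3. *Ncoa3* was at 28 and 14.3 CPM in the KO pair, at 17.7 CPM in WT1 and 27.5 CPM in WT2, while the other 4 had 4.21 to 11 CPM.

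Among 13 receptors that pair with RXR, 11 were tested. Of these, 0 were called in KO by edgeR and 1 by DESeq2 with apeglm, *Vdr*, beside 0% and 7.10% of all genes. With edgeR 1 was higher at an unadjusted p under 0.05, beside 25.2% of all genes, and the median log2 fold change was -0.08, or 0.15 without WT3 and HET3, beside 0.13 and 0.14 over all genes. The LXRβ gene *Nr1h2* (27.6 ± 1.48 CPM per kb, SD, n = 8) was above the level of any RAR gene in each sample. The thyroid hormone receptor *Thra* (6.63 ± 2.05) and the LXRα gene *Nr1h3* (3.08 ± 3.08) followed. The vitamin D receptor *Vdr* had the lowest p (log2 fold change 1.67, standard error 0.410, adjusted p = 0.148, edgeR), at 11.5 and 8.16 CPM in the KO pair, 9.50 CPM in WT1, 11.2 CPM in WT2 and 2.55 to 5.69 CPM in the other 4. With DESeq2 and apeglm it was at 1.42 (adjusted p = 0.00720), and with edgeR at 1.76 without WT3 and HET3. *Thra*, the second lowest, was at -0.66 (standard error 0.355, adjusted p = 0.269, edgeR) and at -0.65 without WT3 and HET3.

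Of 18 genes of retinoid synthesis, transport and breakdown, 9 were tested. In KO 0 were called by edgeR or by DESeq2 with apeglm, beside 0% and 7.10% of all genes. With edgeR 0 were higher and 1 lower at an unadjusted p under 0.05, beside 25.2% of all genes, and the median log2 fold change was -0.39, or 0.11 without WT3 and HET3, beside 0.13 and 0.14 over all genes. The fatty acid-binding protein gene *Fabp5* was highest (43.0 ± 17 CPM per kb, SD, n = 8), before the plasma carrier *Rbp4* (15.6 ± 22.6) and the retinal reductase *Dhrs3* (5.92 ± 6.35). The lowest p was that of *Bco1*, which cleaves carotene, at 0 CPM in KO and 0.415 CPM or less elsewhere (adjusted p = 0.156, edgeR). *Rbp4*, a product of hepatocytes, was at 84.4 and 49.8 CPM in WT3 and HET3 and at 0.376 to 14 CPM in the other 6.

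Of 13 genes known to respond to retinoic acid, 7 were tested. In KO 0 were called by edgeR or by DESeq2 with apeglm, beside 0% and 7.10% of all genes. At an unadjusted p under 0.05 there were 0 with edgeR, beside 25.2% of all genes. With DESeq2 there was 1, *Cyp26b1*, beside 5798 of 20610 genes. The median log2 fold change of the 7 was 0.70 with edgeR, beside 0.13 over all genes, and 0.11 without WT3 and HET3. The highest levels were those of *Dhrs3*, the transglutaminase *Tgm2* (4.10 ± 1.34 CPM per kb, SD, n = 8) and *Cd38* (2.55 ± 1.43). *Cyp26b1*, which breaks down retinoic acid, had the lowest p of these and the second lowest of the 9 genes above (log2 fold change 3.11, standard error 1.39, adjusted p = 0.204, edgeR). It was at 6.31 and 0.885 CPM in the KO pair, at 2.29 CPM in WT1, 5.10 CPM in WT2, while the other 4 had 0 to 1.44 CPM, so that KO2 lay among the WT and HET samples. *Tgm2* came next (log2 fold change 0.70, standard error 0.398, adjusted p = 0.290, edgeR).

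Last, the genes most like each member over the 8 samples were listed, among 10098 to 10099 others with a mean of at least 5 CPM. For *Rara* they were *Zfp873*, *Btd* and *Trp53i13*, with a Pearson r of log2 CPM of 0.99 each. For *Rarg* they were *Ap3m2*, *Abcg3* and *Themis2* (0.99 each), and for *Rxrb* they were *Def6* (0.99), *Mgrn1* (0.99) and *Ralb* (0.97). *Rxra* was closest to *Txn1* (0.95), *Acaca* (0.93) and *Rab24* (0.93), and *Ncor1* to *Kif1bp*, *Gm35315* and *Zfp869* (0.93 each). Among the members themselves the closest pair was *Rara* and *Rarg* (0.86). All these correlations share the same 8 libraries, with their marker levels, and are descriptions.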

How the data were processed

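RNA sequencing of 8 samples was analyzed. The authors deposited raw counts per gene. By the methods, they trimmed the reads with Trim Galore (0.6.6), aligned them to GRCm38 with STAR (2.7.8, Ensembl annotation) and counted uniquely mapped reads with STAR, which lowers genes with near-identical copies. The strand setting is not given in the sources used here. They also deposited log2 values from the variance-stabilizing transformation of DESeq2 (1.38.3), corrected for sex, which are used here for 1 comparison of the members.

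Gene names, positions and exon lengths were taken from GENCODE M21 on GRCm38, which named 55227 of the 55487 identifiers. Genes with fewer than 10 reads over the 8 samples were left out of tests. TMM factors and the quasi-likelihood test were from edgeR 4.0.16 under R 4.3.3, with glmQLFit set to legacy, and a call asked for a Benjamini-Hochberg adjusted p under 0.05 and a log2 change of more than 1 in either direction. The procedure of the methods, DESeq2 (1.42.0) and apeglm (1.24.0), was an alternative. Permutation tests of single values were exact and two-sided, and used log2 CPM, to which edgeR added a prior count of 2. No pair of samples of a genotype agreed within sampling noise.

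The 7 genes and all gene lists were chosen with earlier results of these data known. Named genes of each list are the 3 with the highest mean CPM per kb and the 2 with the lowest p in KO against WT and HET. Other genes were named after their values were seen. Fits without WT3 and HET3 were added after seeing the data. A few genes of the lists are not reported here and enter no count or median. Promoter windows are from RefSeq (GRCm38.p6).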

Additional observations from a re-analysis of the deposited data

Results flagged for a closer look

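Of 24 sets of the 6 WT and HET values examined for a lone sample (member levels, shares, ratios and marker sums), 3 had 1 sample whose gap to the next, divided by the range, passed 0.625. Chance gives about 1 in 20 such groups, and none of the 3 concerned a member. The summed erythroid markers had a gap of 0.671, with HET1 at 14693 CPM and the others at 5710 CPM or less. The megakaryocyte markers also had 0.671, with WT2 at 1355 CPM and the others at 462 CPM or less. The stellate and stromal markers had 0.765, with WT1 at 11.1 CPM and the others at 5.32 CPM or less.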

How the results depend on the processing

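The number of members called in KO was 0 with edgeR, 2 with DESeq2 with or without apeglm, 1 without the filter on low counts and 1 with WT alone as the reference. Over all genes these counts were 0 with edgeR, 1855 and 1463 with DESeq2 without and with apeglm, 1106 without the filter and 662 with WT alone. Without HET replicate 2 or 1, 730 and 8 genes were called, and in the other fits that leave out a sample 0. In HET against WT 0 members were called with edgeR, with DESeq2 or without the filter. Calls of the fit without WT3 and HET3, which rests on HET1, are not counted. In male against female, 2 members were called with DESeq2, beside 1839 of 20585 genes, and 2 without the filter, beside 2154 of 29500. With a sample left out, 1 was called without HET1 and 2 without HET2, beside 1482 and 2999 genes, and 0 in the other such fits. The causes were not tested.

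In KO, *Rara* turned to -0.11 on the log2 scale without WT3, HET3 and the sex term. *Rarb* turned to -0.23 without the sex term, -0.52 without WT3 and HET3, -0.79 without both, and ranged from -5.49 to 4.03 with a sample left out. *Rxra* was at 0.0079 with library size only, which moved the median of all genes to 0.41. *Ncor1*, near 0, was at -0.0264 with DESeq2, -0.0245 with apeglm, -0.0265 with RLE factors, -0.0322 without the sex term, -0.0078 against WT alone, -0.0370 in the female samples, -0.0402 without WT3, HET3 and the sex term, and -0.0196 to 0.0211 with a sample left out. *Rarg* was at 1.32 without KO1 and 3.05 without KO2. In HET against WT, leaving out a sample gave -0.98 to 0.84 for *Rara*, -7.90 to 2.75 for *Rarb* and -0.37 to 0.11 for *Rxrb*. In male against female, *Rarb* turned to -0.12 with DESeq2 and -7.00 without WT3 and HET3, where *Rxra* and *Rxrb* turned to 0.11 and -0.10. With a sample left out these 3 ranged from -5.98 to 4.62, -0.47 to 0.28 and -0.0883 to 0.34. With no length correction the mean share was 10.1% for *Rxra* and 89.9% for *Rxrb*. The other shares moved by less than their SD in each alternative.

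The deviations of same-numbered samples correlated from -0.35 to 0.59. Differently numbered samples were not compared, so whether the replicate numbers pair the samples is not settled by these values. With the replicate block 0 members were called in KO, HET or male contrasts, 589 in place of 5196 genes had an unadjusted p under 0.05 in KO, and *Rarb* turned to -1.10 in KO and to -5.89 in male against female. *Rara*, *Rarg*, *Rxra* and *Rxrb* were at 1.22, 2.49, -0.74 and 0.39 in KO. Depth limits *Rarb*, *Rxrg* and the *Rarg* values on few reads.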
